A study of Mus musculus with 4 samples.

Results

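CpG island shores are the stretches of DNA on either side of CpG islands, here the 2 kb beyond each island edge with the bases of islands left out. CpG islands were called on the mm10 sequence as stretches longer than 200 bp in which GC made up 50% or more and CpGs were more than 0.6 times as frequent as the base composition predicts, and 23929 islands were found. Of the 1545651 CpG sites listed in all 4 deposited tables, 133144 lay in shores, 606364 in islands, 45733 at 2 to 4 kb from an island and 760410 farther away. Each site was assigned to its nearest island. An island was called a promoter island where it lay within 1 kb of the start of any annotated gene (12252 islands). The other 11677 islands were divided into 5593 in gene bodies and 6084 in intergenic sequence. These counts cover the whole sequence, and 19482 islands, of which 9818 were promoter islands, lay in the part of the genome analysed here. Shores of promoter islands held 85829 of the shore sites and shores of other islands held 47315. A shore is counted here for each side of an island, and 20895 shores had at least 1 shared site.

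The libraries were made by reduced representation bisulfite sequencing (RRBS), in which DNA is cut with MspI at CCGG, converted with bisulfite and sequenced, so that the percent of reads still reporting cytosine at a CpG gives its methylation level. R1 ESCs are wild-type mouse embryonic stem cells grown with LIF, and Tet/Tet ESCs are a transgenic line made from R1 by placing tet-off constructs at Dnmt1, downstream of its promoter. The methods describe the Tet/Tet line as overexpressing DNMT1, the maintenance DNA methyltransferase, in ESCs and in neurons, and its ESCs were grown with neomycin (G418) and puromycin, which R1 ESCs did not receive. R1 neurons and Tet/Tet neurons were derived from these ESCs through 2 days as embryoid bodies without LIF and then, per the labels, 10 to 15 days in Ndiff227 medium. No other treatment is given for any group. Each of the 4 conditions was represented by 1 library of 1 line, so no difference below could be set against a spread between cultures, no test was made and no p-value is given. Spreads are standard deviations (SD) over chromosomes, over shores or over sites, and describe variation along the genome. The ESC libraries carry the identifier of one sequencing project and the neuron libraries that of another, so the effects of cell type and of sequencing project cannot be told apart. Per the labels DNA was extracted from neurons with a kit and from ESCs with phenol and chloroform, whereas the methods describe phenol and chloroform for both. The assay measures DNA only, and the identity of the neurons was not checked against expressed markers.

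In mammalian genomes most CpGs are methylated, while CpG islands, and above all those at promoters, are kept free of methylation. DNMT3A and DNMT3B place methyl groups on unmodified CpGs, and DNMT1, guided by UHRF1, copies them to the new strand after replication. Shores are the zone in which the level passes from that of the island to that of the surrounding DNA, and they are known for differences in methylation between tissues.

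The passage from island to surrounding DNA can be read in a single shore. The downstream shore of the island at the start of Dsp, which encodes the desmosomal plaque protein desmoplakin (ENSMUSG00000054889.10), held 43 shared sites, all in introns of Dsp on the forward strand. It was chosen for having many shared sites over most of its length and not for its levels. A stretch near the island, chr13:38151991-38152150, and a stretch farther out, chr13:38153147-38153261, are printed. They too were chosen by distance and number of shared sites and not by their levels. Sequences are of the forward strand of mm10 (GRCm38, from RefSeq), 5′ to 3′, and capitals mark CpGs listed in all 4 libraries.

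Dsp, 46 to 198 bp from the island: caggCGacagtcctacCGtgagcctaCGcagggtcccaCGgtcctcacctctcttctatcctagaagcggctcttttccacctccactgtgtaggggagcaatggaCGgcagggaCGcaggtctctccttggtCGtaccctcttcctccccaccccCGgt

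Dsp, 1202 to 1307 bp from the island: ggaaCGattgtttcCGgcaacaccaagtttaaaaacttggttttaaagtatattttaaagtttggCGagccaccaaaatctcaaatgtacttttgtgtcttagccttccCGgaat

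In the near stretch the mean over its 8 CpGs was 1.15% in R1 ESCs, 0.833% in the Tet/Tet ESCs, 1.51% in the R1 neurons and 0.876% in the Tet/Tet neurons. In the far stretch the mean over 4 CpGs was 10.1%, 6.95%, 49.0% and 4.31% in the same order. The near stretch was low in each library, and the far stretch was high in R1 neurons only among these libraries, with single CpGs between 30.9% and 66.7% there and between 0% and 7.45% in the Tet/Tet neurons.

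The next stretches come from the shores with the largest differences between libraries, by a rule given with the single shores further on, and they show the CpGs behind those differences. Each is from a shore of a promoter island of a protein-coding gene, and the Ppp2r5d, Pcyt2, Vegfb and Gatm genes lie on the reverse strand.

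Ppp2r5d, upstream shore, chr17:46706642-46706720, in an annotated intron: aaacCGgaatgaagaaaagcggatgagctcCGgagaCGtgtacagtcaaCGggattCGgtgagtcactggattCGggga

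Pcyt2, downstream shore, chr11:120615772-120615872: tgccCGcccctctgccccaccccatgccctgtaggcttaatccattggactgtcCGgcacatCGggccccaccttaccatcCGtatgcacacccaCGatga

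D1Pas1, upstream shore, chr1:186967130-186967275, in an exon of the antisense gene Gm37912: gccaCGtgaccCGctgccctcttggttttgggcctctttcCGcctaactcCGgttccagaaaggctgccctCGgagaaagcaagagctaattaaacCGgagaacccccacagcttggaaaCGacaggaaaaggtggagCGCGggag

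Vegfb, downstream shore, chr19:6985408-6985541: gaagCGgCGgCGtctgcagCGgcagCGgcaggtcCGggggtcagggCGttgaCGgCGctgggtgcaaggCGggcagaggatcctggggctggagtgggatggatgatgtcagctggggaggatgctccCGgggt

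Gatm, upstream shore, chr2:122611922-122612081, outside annotated genes: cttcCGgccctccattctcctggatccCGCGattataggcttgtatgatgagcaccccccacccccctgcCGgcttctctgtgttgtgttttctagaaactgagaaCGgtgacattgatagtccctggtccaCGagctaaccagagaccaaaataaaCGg

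The 6 CpGs of the Ppp2r5d stretch averaged 16.7% in R1 ESCs and 88.9% in the Tet/Tet ESCs, with 5 of them at 0% in the former and 100% in the latter and the sixth at 100% and 33.3%. The 5 CpGs of the Pcyt2 stretch averaged 96.3% in the R1 neurons and 5.23% in the Tet/Tet neurons, beside 10.8% and 5.49% in R1 and Tet/Tet ESCs. Across the 9 CpGs of the D1Pas1 stretch R1 ESCs had a mean of 8.34% and R1 neurons one of 95.3%, with 10.7% in the Tet/Tet ESCs and 15.0% in the Tet/Tet neurons. In the Ppp2r5d stretch Tet/Tet ESCs thus stood beside R1 neurons, which averaged 90.6% there, while in the Pcyt2 and D1Pas1 stretches R1 neurons alone stood high. The 11 CpGs of the Vegfb stretch averaged 2.90% in the Tet/Tet ESCs and 23.8% in the Tet/Tet neurons, with R1 neurons at 94.3%. In the Gatm stretch the 7 CpGs averaged 62.7% in the Tet/Tet ESCs and 19.5% in the Tet/Tet neurons, with 59.0% in R1 ESCs and 92.5% in R1 neurons.

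The shared sites are a selected part of the shores. The tables listed between 2311939 and 5298360 CpG sites per library, and their number of reads per site is unknown, so no interval from counting could be given. Of the 1040083 CpGs in the shores of the analysed part of the genome, 12.8% were listed in all 4 libraries. In shores of promoter islands this share was 28.1% in the 200 bp next to the island and 8.13% at 1800 to 2000 bp, while the mean number of other CpGs within 100 bp went from 7.0 to 2.85. Of the CpGs in promoter island shores, 18.3% were listed in R1 ESCs, 23.6% in the Tet/Tet ESCs, 40.4% in the R1 neurons and 38.7% in the Tet/Tet neurons. MspI fragments of 40 to 220 bp cut from the sequence, the size range usual for RRBS, held 49.3% of the shared shore sites and 11.5% of all shore CpGs. The shared sites of shores therefore lean towards the island edge, towards dense CpGs and towards such fragments.

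The methylation level went up with distance from promoter islands in each library, and most in R1 neurons. In R1 ESCs the mean over shared sites went from 4.83% ± 0.411 (SD over 17 chromosomes) in the 200 bp next to the island to 34.2% ± 3.59 (SD over 12 chromosomes) at 1800 to 2000 bp. Tet/Tet ESCs went from 4.89% ± 0.523 to 35.4% ± 4.22 over the same steps. R1 neurons went from 16.3% ± 1.55 to 82.4% ± 4.38, and Tet/Tet neurons from 4.69% ± 0.394 to 14.9% ± 1.44. Each of the 9 moves from a step to the next one out was upward in each of the 4 libraries. Over all promoter island shores the mean was 12.4% ± 0.839 in R1 ESCs, 12.9% ± 0.893 in the Tet/Tet ESCs, 39.9% ± 3.08 in the R1 neurons and 7.63% ± 0.414 in the Tet/Tet neurons (SD over 18 chromosomes, 85829 sites).

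**Figure D1:**
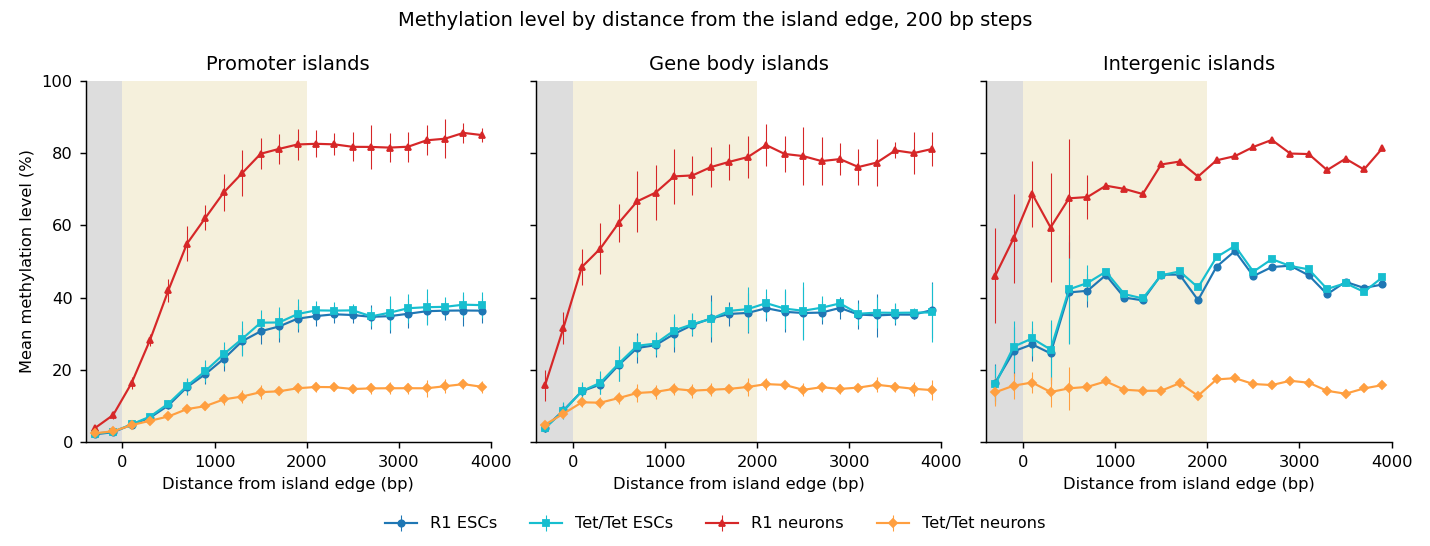
Mean methylation level (percent of reads reporting cytosine, y axis) of shared CpG sites in steps of 200 bp from 400 bp inside the island to 4000 bp outside it (x axis), for promoter, gene body and intergenic islands. Grey marks the island and pale yellow the shore, bars are SDs over chromosomes with at least 100 sites in the step (no bar where fewer than 2 chromosomes had them), and each library has 1 value per step. R1 neurons go from 16.3% to 82.4% across promoter island shores and Tet/Tet neurons from 4.69% to 14.9%.

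At promoter islands R1 neurons reached a high level closer to the edge than the ESCs did. The level midway between the innermost and the outermost step was reached 614 bp from promoter islands in R1 neurons, 932 bp in R1 ESCs, 922 bp in the Tet/Tet ESCs and 861 bp in the Tet/Tet neurons. At 600 to 800 bp R1 neurons stood at 54.9% ± 4.88, when R1 ESCs stood at 15.2% ± 2.21, Tet/Tet ESCs at 15.5% ± 2.31 and Tet/Tet neurons at 9.12% ± 0.856 (SD over 17 chromosomes, 6916 sites). The level of R1 ESCs at 1800 to 2000 bp was passed by R1 neurons by the step at 400 to 600 bp, where they averaged 42.1%. At other islands R1 neurons averaged 55.8% already in the innermost step, and their midway level was instead reached farther out. It lay at 677 bp in R1 neurons, 498 bp in R1 ESCs, 532 bp in the Tet/Tet ESCs and 634 bp in the Tet/Tet neurons.

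The levels on either side of the shore limits were as follows. Just inside the edge of promoter islands, in the outermost 200 bp of the island, the means were 2.72% in R1 ESCs, 2.85% in the Tet/Tet ESCs, 7.49% in the R1 neurons and 2.98% in the Tet/Tet neurons. Just beyond 2 kb, at 2000 to 2200 bp, they were 34.9%, 36.5%, 82.6% and 15.3% in the same order. From 2 to 4 kb the means of promoter islands were 35.6%, 36.8%, 83.0% and 15.1%, close to those of the outermost shore step. Beyond 4 kb from any island the means over 760410 sites were 45.9% in R1 ESCs, 48.3% in the Tet/Tet ESCs, 86.7% in the R1 neurons and 16.6% in the Tet/Tet neurons, each higher than in the outermost shore step and most so in the ESC libraries. At other islands the outermost 200 bp of the island averaged 39.7% in R1 neurons and the first 200 bp of the shore 55.8%, a larger gap than between any neighbouring steps within those shores.

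Shores of other islands began at a higher level and had a flatter course. Their means were 26.3% ± 8.51 in R1 ESCs, 26.9% ± 9.02 in the Tet/Tet ESCs, 63.6% ± 6.55 in the R1 neurons and 13.4% ± 1.35 in the Tet/Tet neurons (SD over 19 chromosomes, 47315 sites). The wide spread in ESCs came with 231 sites of the Y chromosome, which averaged 61.2% in R1 ESCs and 63.7% in the Tet/Tet ESCs, and over 17 autosomes the means were 25.8% ± 3.25 and 26.4% ± 3.71. From the innermost to the outermost step these shores went from 18.8% to 36.8% in R1 ESCs, from 19.4% to 38.6% in the Tet/Tet ESCs, from 55.8% to 77.3% in the R1 neurons and from 12.98% to 14.5% in the Tet/Tet neurons. Tet/Tet neurons thus differed by 1.55 points between the ends of these shores, which was within the SD of 3.02 over 17 chromosomes, while the other 3 libraries differed by 18.1 to 21.5 points. Without soft-masked (repeat) bases the difference between the ends was 34.0 points in the R1 neurons and 5.49 points in the Tet/Tet neurons.

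Gene body and intergenic islands differed in where their shores began. In the 200 bp next to gene body islands R1 ESCs averaged 14.1%, Tet/Tet ESCs 14.1%, the R1 neurons 48.5% and the Tet/Tet neurons 11%. Next to intergenic islands the means were 27.1%, 28.7%, 68.8% and 16.5% in the same order. Whole gene body shores averaged 22.5%, 22.9%, 61.4% and 12.6%, and whole intergenic shores 34.7%, 36.0%, 68.4% and 15.3%. The order promoter, gene body, intergenic was therefore the same in each library. Soft-masked bases held 7.73% of the promoter shore sites, 11.1% of the gene body shore sites and 49.3% of the intergenic ones. Within other islands, shore sites in soft-masked bases averaged 44.0% in R1 ESCs, 83.2% in the R1 neurons and 20.4% in the Tet/Tet neurons, beside 21%, 57.8% and 11.4% outside them.

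Between Tet/Tet ESCs and R1 ESCs the shore means were close. The difference, Tet/Tet minus R1, was 0.488 points ± 0.447 (SD over 18 chromosomes) in promoter island shores and 0.679 points ± 1.14 (SD over 19 chromosomes) in other shores. It was above 0 on 16 of 17 autosomes for promoter island shores and on 15 of 17 for other shores, and its range over autosomes was -0.028 to 1.53 points and -0.387 to 3.96 points. By distance, the difference in promoter island shores lay between 0.059 points next to the island and 2.38 points at 1400 to 1600 bp, with an SD over chromosomes of 0.315 at the former and 2.11 at the latter. Beyond 4 kb from islands the difference was 2.46 points ± 0.614. Whether R1 and Tet/Tet cultures of ESCs differ by this much beyond the spread between cultures cannot be read from 1 library each.

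Between Tet/Tet neurons and R1 neurons the shore means lay far apart. The difference, Tet/Tet minus R1, was -32.3 points ± 2.74 in promoter island shores and -50.2 points ± 5.81 in other shores, and it was below 0 on each of 17 autosomes in both, with ranges of -36.3 to -29.4 and -57.5 to -43.7 points. In promoter island shores it widened with distance, from -11.6 points ± 1.34 next to the island to -67.5 points ± 3.68 at 1800 to 2000 bp. In other shores it went from -42.8 points ± 4.58 to -62.8 points ± 2.30 over the same steps. As a share of the R1 level, Tet/Tet neurons held 28.7% next to promoter islands, 16.0% at 800 to 1000 bp and 18.1% at 1800 to 2000 bp. The share was 49.9% inside promoter islands, where the levels themselves were low (2.665% in the Tet/Tet neurons and 5.34% in the R1 neurons). Beyond 4 kb from islands it was 19.09%.

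**Figure D2:**
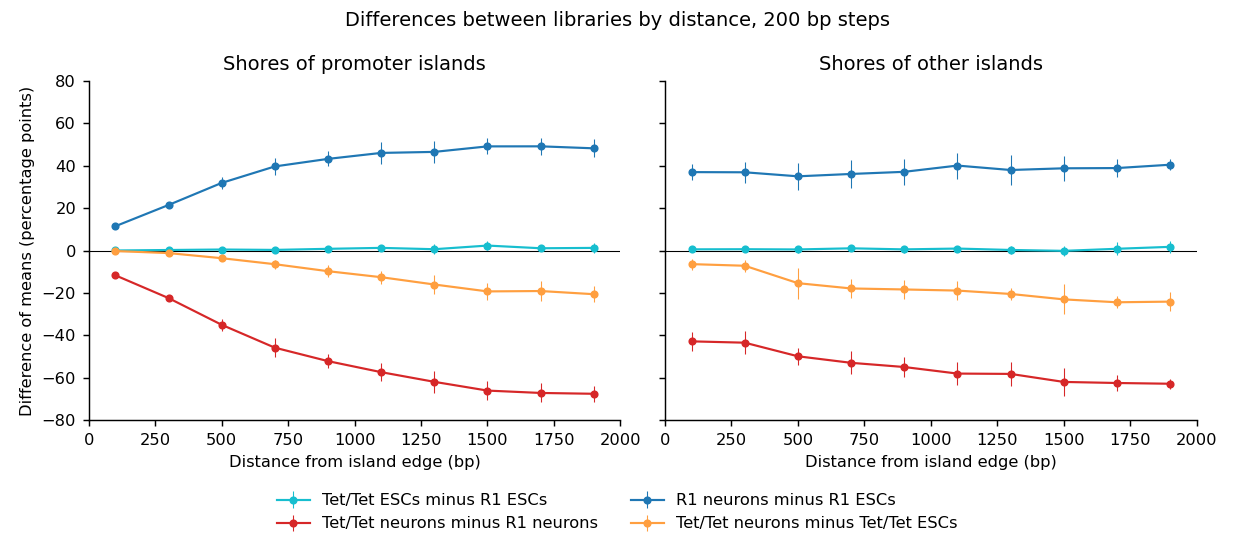
Difference of mean methylation levels between 2 libraries in percentage points (y axis) by distance from the island edge in 200 bp steps (x axis), for shores of promoter islands and of other islands. Bars are SDs over chromosomes with at least 100 sites in the step, and no bar stands for replicate cultures. Tet/Tet minus R1 goes from -11.6 to -67.5 points in neurons across promoter island shores and stays between 0.059 and 2.38 points in ESCs.

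From ESCs to neurons the shores differed in opposite directions in the lines, in values that join cell type and sequencing project. R1 neurons were 27.5 points ± 2.57 above R1 ESCs in promoter island shores and 37.3 points ± 4.72 above them in other shores. Tet/Tet neurons minus Tet/Tet ESCs was -5.26 points ± 0.792 in promoter island shores and -13.5 points ± 8.51 in other shores, or -13.1 points ± 3.63 over autosomes alone. The R1 difference went from 11.5 points next to promoter islands to 48.3 points at 1800 to 2000 bp, and the Tet/Tet difference from -0.204 to -20.6 points. Next to promoter islands Tet/Tet neurons and Tet/Tet ESCs thus stood within the SD over chromosomes of 0.327 points, and the libraries parted with distance.

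Local CpG density and distance each went with the level. Within 200 bp of promoter islands, sites with 0 to 1 other CpG within 100 bp averaged 34.8% in the R1 neurons and sites with 11 or more averaged 10.9%. At 1200 to 2000 bp the same classes averaged 86.4% and 49.3%. Sites with 4 to 6 neighbours went from 20.1% ± 2.23 within 200 bp to 81.5% ± 6.03 at 1200 to 2000 bp in R1 neurons, from 5.58% to 31.0% in R1 ESCs and from 5.44% to 14.3% in the Tet/Tet neurons. The level went up with distance within each of the 5 density classes in each library, and density was lower farther out. In shores of other islands several classes did not follow this order in 1 or more libraries. In the densest class R1 ESCs were at 12.6% within 200 bp, 31.8% at 600 to 1200 bp and 18.5% at 1200 to 2000 bp, and with 7 to 10 neighbours R1 neurons were at 57.5% within 200 bp and 55.3% at 200 to 600 bp.

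**Figure D3:**
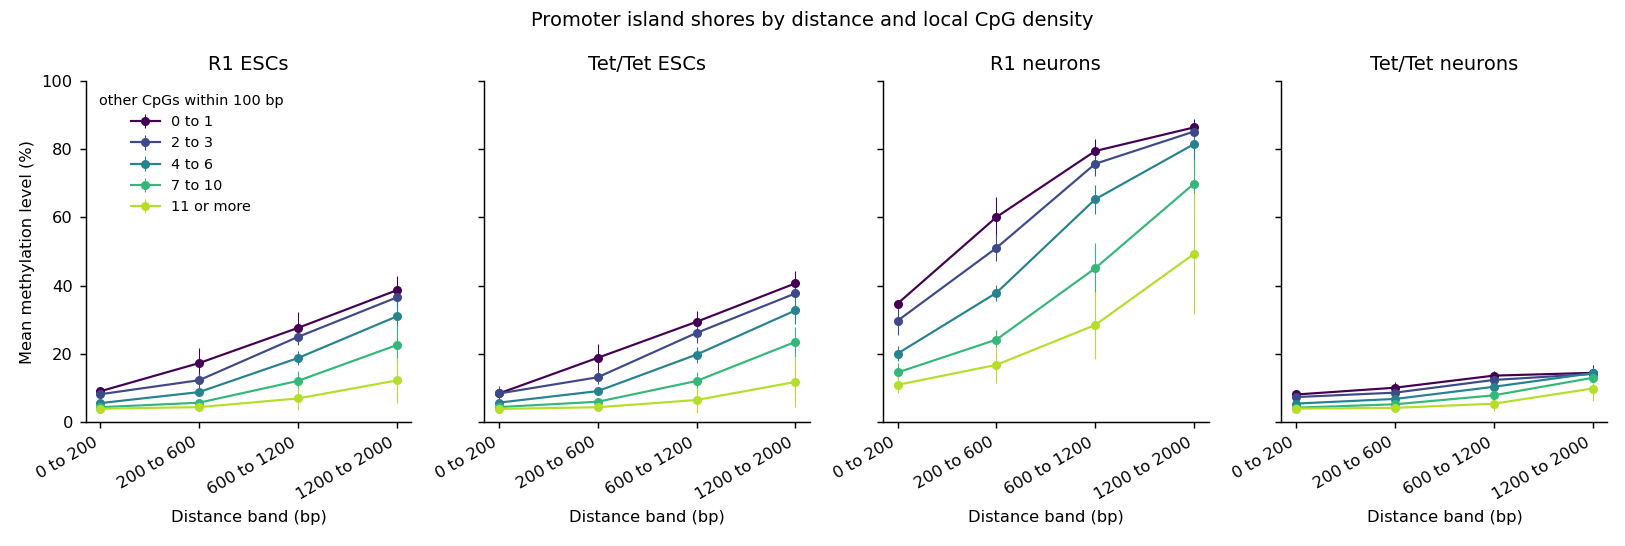
Mean methylation level (y axis) of shared sites in promoter island shores by distance band (x axis), with a line for each class of local density, the number of other CpGs within 100 bp of the site, and a panel for each library. Bars are SDs over chromosomes with at least 30 sites. Levels go up with distance in each density class, and in R1 neurons the sparsest class reaches 86.4% and the densest 49.3% at 1200 to 2000 bp.

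Upstream and downstream shores of promoter islands were compared where the gene starts at an island shared a strand. Upstream shores averaged 13.8% ± 1.67 in R1 ESCs, 14.2% ± 1.85 in the Tet/Tet ESCs, 42.4% ± 4.57 in the R1 neurons and 8.03% ± 0.668 in the Tet/Tet neurons (28518 sites, SD over 18 chromosomes). Downstream shores averaged 12.46% ± 1.29, 13.1% ± 1.22, 41.0% ± 3.66 and 7.73% ± 0.657 in the same order (36565 sites). In each library the means of the sides lay closer together than the larger of their SDs over chromosomes. They were farthest apart at 400 to 1000 bp, where R1 ESCs averaged 15.7% ± 2.16 upstream and 13.4% ± 1.18 downstream and R1 neurons 54.4% ± 6.97 and 50.6% ± 3.89. Shores of islands with starts on both strands were lower, at 10.4%, 10.8%, 34.5% and 6.88%, and within 400 bp of the island R1 neurons averaged 15.2% ± 1.99 there, beside 23.9% ± 2.28 upstream and 22.3% ± 2.11 downstream.

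Single sites fell mostly into low and high classes in the R1 neurons and mostly into the low class in the Tet/Tet neurons. In promoter island shores 47.0% of sites were under 20% in the R1 neurons and 26.9% were at 80% or more, while in the Tet/Tet neurons 89.5% were under 20% and 0.47% at 80% or more. Sites under 20% in all 4 libraries made up 72.6% of those within 200 bp of promoter islands and 6.37% of those at 1800 to 2000 bp. Of the 23126 promoter shore sites at 80% or more in R1 neurons, 73.0% were under 20% in the Tet/Tet neurons and 44.5% were under 20% in R1 ESCs. In shores of other islands the same shares of 25309 sites were 61.4% and 32.9%. Sites listed at exactly 0% made up 31.0% of promoter shore sites in R1 ESCs, 25.7% in the Tet/Tet ESCs, 12.96% in the R1 neurons and 31.8% in the Tet/Tet neurons. In R1 ESCs that share was 15.1% inside MspI fragments of 40 to 220 bp and 45.7% outside them.

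Whole shores were compared where they held at least 5 shared sites, which left 7017 shores of promoter islands and 3716 of other islands. A shore was counted as higher or lower where its mean differed by at least 10 percentage points, and the background is the share of 79938 windows of 2 kb across the genome, also with at least 5 shared sites, that pass the same rule. Between ESCs, 868 of the 10733 shores (8.09%) were higher in Tet/Tet, against 16.9% of the windows, and 607 (5.66%) were lower, against 8.36%. Between neurons, 12 shores (0.11%) were higher in Tet/Tet, against 0.0313% of the windows, and 8233 (76.7%) were lower, against 84.9%. Both shares of shores in ESCs and the share lower in neurons thus lay below those of the windows.

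From R1 ESCs to R1 neurons, 7956 shores (74.1%) were higher, against 81.8% of the windows, and 37 (0.34%) were lower, against 0.208%. From Tet/Tet ESCs to Tet/Tet neurons, 245 shores (2.28%) were higher, against 2.12%, and 3112 (28.99%) were lower, against 61.5% of the windows. That last share differed most between classes, at 22.1% of promoter, 37.8% of gene body and 51.5% of intergenic shores. The median difference of promoter shores was 0.299 points between ESCs, -28.9 points between neurons, 24.2 points from R1 ESCs to R1 neurons and -1.13 points from Tet/Tet ESCs to Tet/Tet neurons. For shores of other islands the medians were 0.049, -60.8, 37.9 and -5.81 points in the same order.

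**Figure D4:**
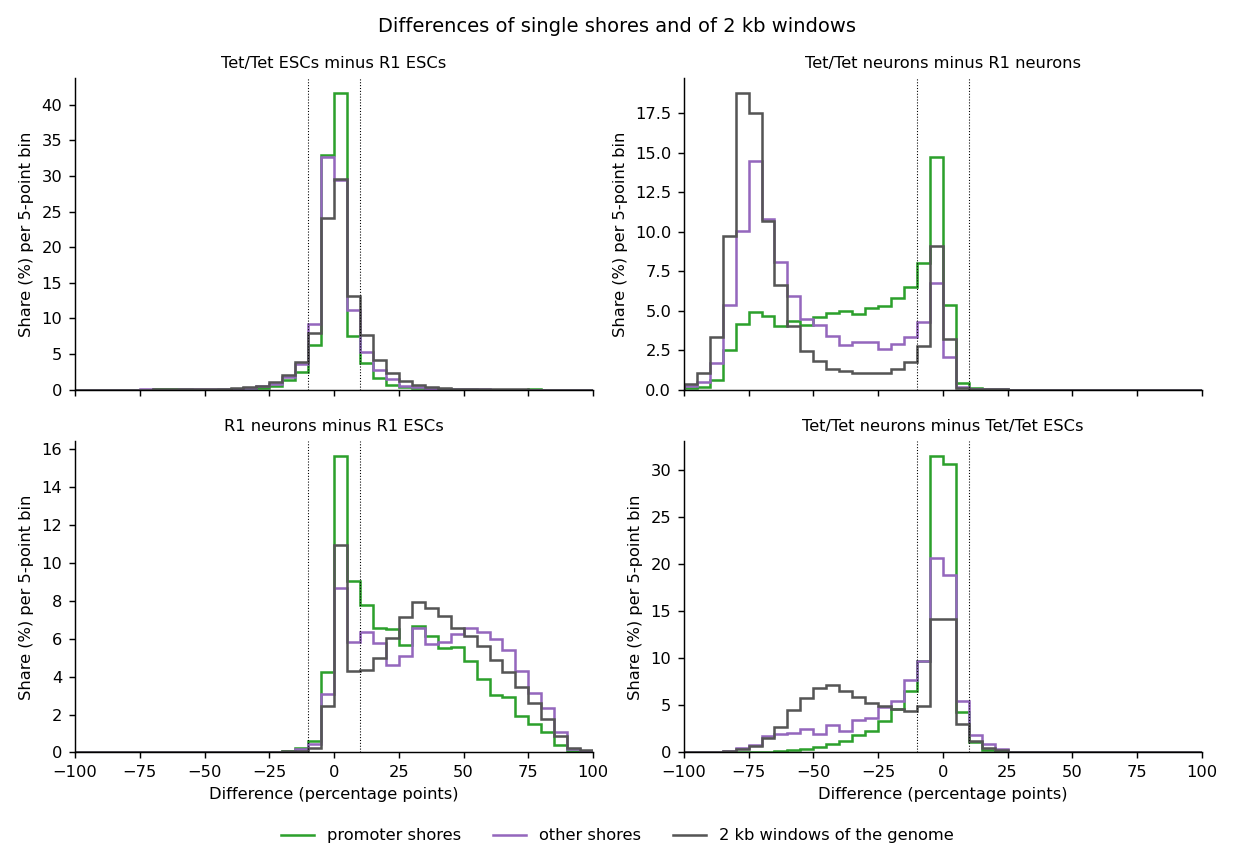
Distribution of the difference in mean methylation level (x axis, percentage points, bins of 5 points) over single shores of promoter islands, single shores of other islands and 2 kb windows of the genome with at least 5 shared sites each (y axis, percent per bin), for the 4 comparisons. Dotted lines mark 10 points in either direction. In neurons, promoter shores spread over a broad range with a median of -28.9 points, while most other shores and windows gather around lower values. Each distribution holds a group near 0, with 14.7% of promoter shores, 6.73% of other shores and 9.06% of windows from -5 to 0 points.

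R1 neurons were the highest of the 4 libraries in 89.3% of promoter shores and 93.8% of other shores, and Tet/Tet neurons were the lowest in 49.6% and 64.8%. A mean of 80% or more was found in 1087 promoter shores (15.5%) and 1847 other shores (49.7%) in R1 neurons, and in 0 promoter shores and 3 other shores in the Tet/Tet neurons. Means under 20% in all 4 libraries were found in 2424 promoter shores (34.5%) and 598 other shores (16.1%). A mean of at least 20% in the Tet/Tet neurons occurred in 330 promoter shores (4.70%) and 876 other shores (23.6%). The shares in this paragraph were not computed over the 2 kb windows, so they are not read as traits of shores. Of single sites beyond 4 kb from islands, 83.9% were at 80% or more in R1 neurons and 1.5% in the Tet/Tet neurons. In the Tet/Tet neurons 68.85% of those sites were under 20%.

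The course with distance was also present inside single shores. In 786 promoter shores with at least 3 shared sites within 400 bp and at least 3 at 1200 to 2000 bp, the far part was higher by at least 10 points in 65.4% of shores in R1 ESCs, 65.5% in the Tet/Tet ESCs, 86.4% in the R1 neurons and 41.9% in the Tet/Tet neurons. It was lower by at least 10 points in 2.16% to 3.44% of them. The median difference between the far and near parts of a promoter shore was 20.2 points in R1 ESCs, 22.2 in the Tet/Tet ESCs, 62.3 in the R1 neurons and 8.02 in the Tet/Tet neurons. In 410 shores of other islands the far part was higher in 56.3%, 54.9%, 51.2% and 24.9% of shores in the same order. By this rule most promoter shores followed the mean course in both ESC libraries and in R1 neurons. For the Tet/Tet neurons a rule of 10 points cannot decide this. Their means differed by 10.2 points between the innermost and outermost steps. The lower quartile of the difference between far and near parts was 1.995 points there, so most of these shores were higher in the far part.

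The levels of the shores on the 2 sides of an island were more closely correlated at other islands than at promoters. Over 1407 promoter islands with at least 5 shared sites on each side, the correlation between the sides was 0.207 (Pearson) in R1 ESCs, 0.208 in the Tet/Tet ESCs, 0.25 in the R1 neurons and 0.118 in the Tet/Tet neurons. Over 683 other islands it was 0.599, 0.611, 0.673 and 0.499. The sides of an island come from the same library and differ in the distances of their sites, so these values are descriptions. For the difference between ESCs the correlation was 0.086 at promoter and 0.072 at other islands, so a shore higher in the Tet/Tet ESCs said little of the shore across its island. The median gap between the sides in R1 neurons was 22.5 points at promoter islands and 11.3 points at other islands. In the remaining libraries the gap was instead smaller at promoter islands. It was 7.10 against 9.36 points in R1 ESCs, 6.895 against 9.64 in the Tet/Tet ESCs and 3.92 against 4.55 in the Tet/Tet neurons.

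Shores of methylated islands were themselves higher. Where an island had a mean under 10% in R1 neurons, its promoter shores averaged 35.7% there and its other shores 35.7%. Where the island stood at 50% or more, they averaged 82.6% and 87.1%. In Tet/Tet neurons the shores of these latter islands averaged 15.1% and 19.3%. These are means over shores with at least 5 shared sites, each shore weighted equally. Among islands of a like level in R1 neurons, promoter and other shores therefore differed less than over all islands. There, with shores weighted equally and shores of fewer sites included, they averaged 41.8% and 69.6%.

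Single shores were named by size of difference. Among 2508 shores of promoter islands of protein-coding genes with at least 10 shared sites, the 3 largest differences in each direction were taken for each comparison. These shores were picked by their values, so the values are a description. Differences of single shores between ESCs rested in part on CpGs at opposite extremes in the libraries.

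Between ESCs, the largest positive difference was in the upstream shore of Ppp2r5d, which encodes a regulatory subunit of protein phosphatase 2A (ENSMUSG00000059409.9, chr17:46705241-46707240). Its 10 sites averaged 11.5% ± 31.2 (SD over sites) in R1 ESCs, 54.6% ± 48.7 in the Tet/Tet ESCs, 58.1% ± 42.8 in the R1 neurons and 16.1% ± 14.9 in the Tet/Tet neurons. The difference of 43.2 points rested on the 5 CpGs at 1432 to 1475 bp printed above, which were at 0% in R1 and 100% in the Tet/Tet ESCs, and its 2 sites in MspI fragments of 40 to 220 bp differed by -0.318 points. In the upstream shore of Rbm19, which encodes an RNA-binding protein of ribosome biogenesis, levels averaged 5.70% ± 5.71 in R1 ESCs and 41.6% ± 25.8 in the Tet/Tet ESCs over 10 sites at 1432 to 1800 bp. It was higher in the Tet/Tet ESCs at 10 of 10 sites and by 33.5 points over the 9 sites in such fragments. Rbm19 stood at 91.0% ± 7.30 in the R1 neurons and at 37.0% ± 43.9 in the Tet/Tet neurons, where 3 neighbouring CpGs were at 100% and the other 7 between 0% and 20%. Trmo, a tRNA methyltransferase gene, had an upstream shore that averaged 1.46% in R1 ESCs and 29.3% in the Tet/Tet ESCs, with 3.14% and 1.98% in R1 and Tet/Tet neurons, and its 5 sites in fragments differed by 0.953 points.

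The largest negative differences between ESCs were in the shores of Dok7, Xpo1 and Churc1. Dok7 encodes an adaptor of the muscle kinase MuSK at the neuromuscular junction, and its upstream shore averaged 59.5% ± 37.5 over 17 sites in R1 ESCs, 36.6% ± 31.4 in the Tet/Tet ESCs, 87.4% ± 27.0 in the R1 neurons and 14.9% ± 11.6 in the Tet/Tet neurons. The downstream shore of Xpo1, the gene of the nuclear export receptor exportin 1, averaged 22.0% ± 41.2 in R1 ESCs and 1.15% ± 1.49 in the Tet/Tet ESCs, and the downstream shore of Churc1 22.1% ± 41.1 and 2.52% ± 3.77. Over sites in fragments these shores differed by -9.41, -1.13 and 0.444 points. Of the 6 shores named between ESCs, Rbm19 alone kept a difference of at least 10 points over those sites.

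Between neurons, the largest negative differences were in the shores of Pcyt2, Kat2a and Tap1. The downstream shore of Pcyt2, the gene of an enzyme of phosphatidylethanolamine synthesis (ENSMUSG00000025137.15, chr11:120615582-120617581), averaged 94.7% ± 7.38 in the R1 neurons and 7.39% ± 8.51 in the Tet/Tet neurons over 11 sites. R1 ESCs averaged 9.12% ± 8.02 and Tet/Tet ESCs 10.4% ± 9.48 there, so R1 neurons alone stood high among these libraries. Kat2a, a histone acetyltransferase gene, had a downstream shore that averaged 97.7% ± 4.10 in the R1 neurons and 10.6% ± 12.52 in the Tet/Tet neurons, with 10.0% and 14.6% in R1 and Tet/Tet ESCs. Tap1 encodes a subunit of the peptide transporter of antigen presentation, and its upstream shore averaged 92.7% ± 5.76 in the R1 neurons and 7.44% ± 4.69 in the Tet/Tet neurons, and unlike the former shores it was at 54.4% and 49.4% in the ESCs.

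Positive differences between neurons were small. The upstream shore of Vim, the gene of the intermediate filament protein vimentin, averaged 3.26% ± 5.29 in the R1 neurons and 12.2% ± 19.14 in the Tet/Tet neurons, with 4 of 11 sites higher in the latter. The upstream shore of Nr1h3, which encodes the liver X receptor alpha, averaged 5.59% and 11.3%, and the downstream shore of Hist1h1c, a linker histone gene, 8.61% and 13.6%. Each of these 3 differences was under 10 points, and over sites in fragments they were -3.35, 0.834 and 1.43 points.

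From R1 ESCs to R1 neurons, the largest positive differences were in the shores of D1Pas1, Kat2a and Uggt1. The upstream shore of D1Pas1, a testis-expressed retrogene of the DEAD-box helicase family (ENSMUSG00000039224.1), averaged 6.25% ± 7.85 in R1 ESCs and 94.4% ± 8.42 in the R1 neurons over 12 sites within 585 bp of the island, with 12.2% ± 16.98 in the Tet/Tet ESCs and 23.3% ± 20.04 in the Tet/Tet neurons. Uggt1 encodes a glucosyltransferase of glycoprotein folding control, and its downstream shore averaged 3.78% ± 3.02 in R1 ESCs, 3.48% in the Tet/Tet ESCs, 90.6% ± 7.68 in the R1 neurons and 8.09% in the Tet/Tet neurons. The nearest high site of D1Pas1 thus lay 120 bp from the island, whereas the Uggt1 sites lay 1539 to 1850 bp away. The largest negative differences, in the shores of Xpo1, Wbp2 and Hectd3, were -13.1, -10.4 and -9.75 points. Wbp2 was listed at 0% at each of its 12 sites in R1 neurons, and its value in R1 ESCs rested on 2 sites. In Xpo1 4 sites were higher and 4 lower in R1 neurons, and over sites in fragments the difference was 11.01 points.

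From Tet/Tet ESCs to Tet/Tet neurons, the shores of Vegfb, Luzp1 and Rad51c had the largest positive differences. The downstream shore of Vegfb, a vascular endothelial growth factor gene (ENSMUSG00000024962.13), averaged 3.41% ± 4.93 in the Tet/Tet ESCs and 21.8% ± 10.3 in the Tet/Tet neurons, with 11 of 12 sites higher in the latter. R1 ESCs were at 9.20% ± 8.35 and R1 neurons at 87.2% ± 25 there. Rad51c, a gene of homologous recombination, had an upstream shore that averaged 6.31% ± 6.98 in the Tet/Tet ESCs and 22.9% ± 23.4 in the Tet/Tet neurons, beside 94.3% ± 7.38 in R1 neurons. Luzp1 encodes a leucine zipper protein, and its upstream shore averaged 1.82% and 18.7%, and its 1 site in a fragment differed by -3.94 points. Both Vegfb and Rad51c were thus higher in the neurons of each line than in its ESCs, by 18.4 and 16.6 points in Tet/Tet.

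The largest negative differences in Tet/Tet were in the shores of Gatm, Ttyh3 and Dcxr. A fall of their size needs a high starting level, so their high levels in the Tet/Tet ESCs follow from the choice. The upstream shore of Gatm, which encodes the glycine amidinotransferase of creatine synthesis (ENSMUSG00000027199.14), averaged 67.03% ± 23.1 in R1 ESCs, 71.5% ± 22.2 in the Tet/Tet ESCs, 92.7% ± 6.75 in the R1 neurons and 16.5% ± 16.7 in the Tet/Tet neurons, and 10 of 10 sites were lower in the Tet/Tet neurons than in the Tet/Tet ESCs. The downstream shore of Ttyh3, the gene of a chloride channel of the tweety family, averaged 61.8% ± 33.8 in the Tet/Tet ESCs and 8.85% ± 9.14 in the Tet/Tet neurons. Dcxr, a carbonyl reductase gene, had a downstream shore that averaged 56.0% ± 37.2 and 5.59% ± 8.27. Over the single site of Dcxr in a fragment the difference was -4.003 points.

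**Figure D5:**
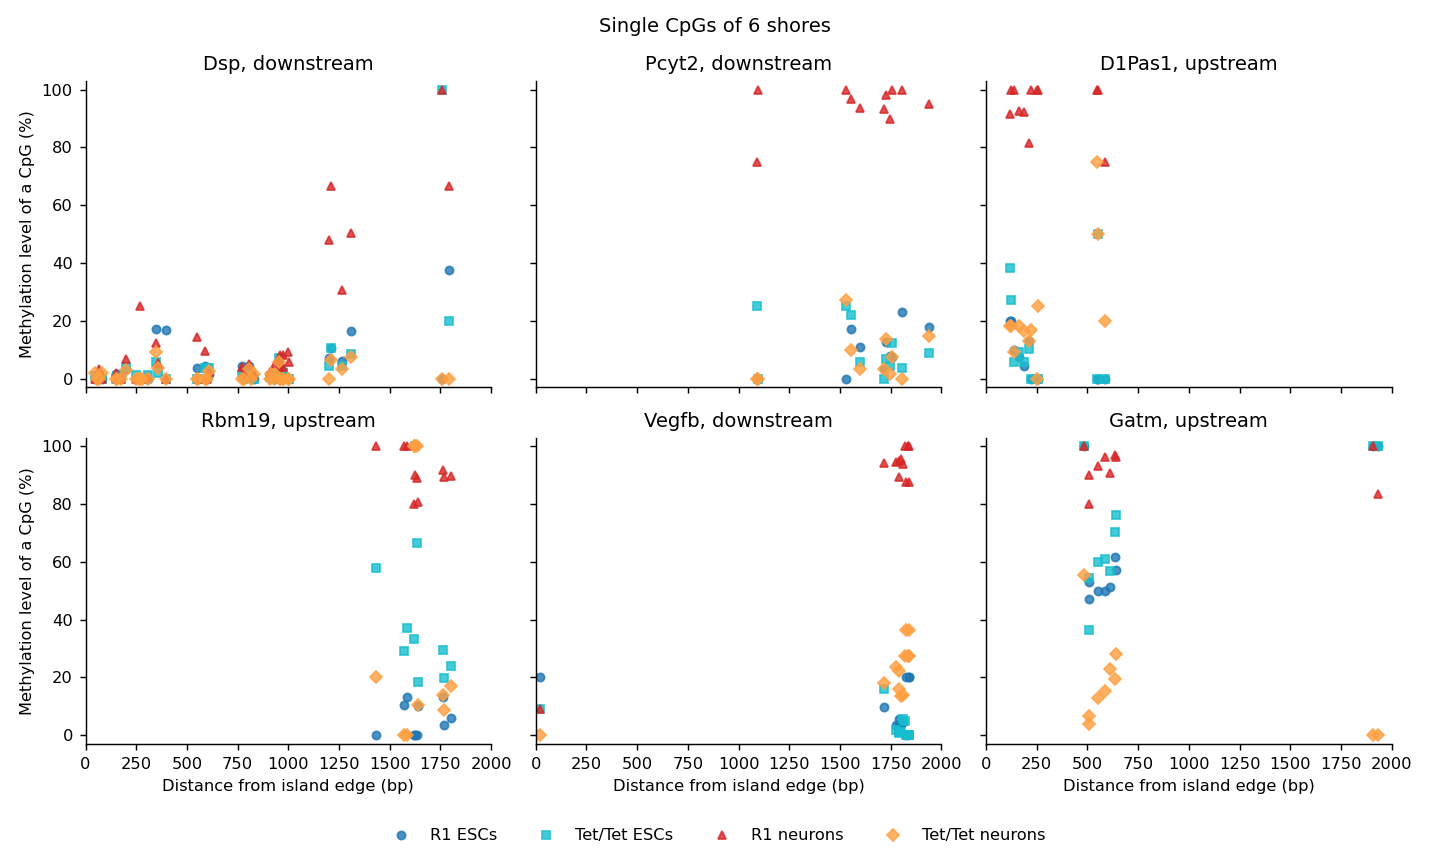
Methylation level of single CpGs (y axis, percent) by distance from the island edge (x axis, bp) in 6 shores of promoter islands, with a symbol for each library. In the Dsp shore R1 neurons lie above the other libraries from 1202 to 1307 bp, and in the Pcyt2 shore 11 of 11 sites are lower in Tet/Tet than in R1 neurons. In the Rbm19 shore 3 CpGs of Tet/Tet neurons stand at 100% beside others at 20% or less.

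Gene groups were read through the shores of their promoter islands, with a gene's level taken as the mean over the shared sites of those shores where there were at least 5. Over 6370 protein-coding genes with such a level, the medians were 8.00% in R1 ESCs, 8.12% in the Tet/Tet ESCs, 34.9% in the R1 neurons and 6.22% in the Tet/Tet neurons. By the rule of 10 points, 5.81% of these genes were higher and 4.41% lower in Tet/Tet than in R1 ESCs, 0.11% higher and 76.0% lower in Tet/Tet than in R1 neurons, and 73.8% higher in R1 neurons than in R1 ESCs. No gene group below is called different from all genes, and its counts stand beside those shares as descriptions.

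Germline genes, which are expressed in germ cells and silenced in most other tissues, had the highest shores of the groups. Of 25 listed genes, 11 had a level, with medians of 29.2% in R1 ESCs, 38.2% in the Tet/Tet ESCs, 90.5% in the R1 neurons and 20.7% in the Tet/Tet neurons. Between neurons 11 of 11 were lower in Tet/Tet, and from R1 ESCs to R1 neurons 11 of 11 were higher. Between ESCs 5 of 11 were higher in Tet/Tet by at least 10 points and 0 were lower. Dazl, which encodes an RNA-binding protein of germ cells, averaged 46.1% ± 26.0 (SD over 11 sites) in R1 ESCs, 60.7% ± 28.3 in the Tet/Tet ESCs, 87.5% ± 23.5 in the R1 neurons and 26.3% ± 26.4 in the Tet/Tet neurons. Tdrd1, a gene of the piRNA pathway, averaged 44.0% ± 35.2, 54.1% ± 20.3, 92.6% ± 7.32 and 23.5% ± 15.9 in the same order. Hormad1, a gene of meiotic chromosome axes, stood at 31.4%, 38.2%, 90.5% and 20.8%, and Mei1, a gene of meiotic recombination, at 35.3%, 43.5%, 90.4% and 27.5%. Brdt, a testis bromodomain gene named here after its values were seen, had the largest difference of the group between ESCs, from 35.3% ± 30.8 in R1 to 81.4% ± 20.6 in Tet/Tet over 10 sites.

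Imprinted genes, of which one parental copy is silenced, had a level in 9 of 34 cases, with medians of 15.7% in R1 ESCs, 13.1% in the Tet/Tet ESCs, 43.1% in the R1 neurons and 3.57% in the Tet/Tet neurons. Peg10 and Sgce share an island and thus their sites. Peg13, a paternally expressed non-coding RNA gene, averaged 37.0% ± 12.9 in R1 ESCs, 88.0% ± 7.82 in the Tet/Tet ESCs, 89.7% ± 11.4 in the R1 neurons and 28.8% ± 13.2 in the Tet/Tet neurons over 14 sites at 391 to 917 bp. Peg3, named after its values were seen, went the other way in ESCs, from 40.6% ± 46.2 in R1 to 7.27% ± 14.7 in Tet/Tet over 8 sites. Nnat, the neuronatin gene, averaged 15.7%, 24.1%, 62.2% and 11.2% in the same order over 30 sites. Gnas, the gene of a stimulatory G protein subunit, averaged 4.28%, 1.82%, 45.4% and 9.63% over 26 sites, and H13, a signal peptide peptidase gene, 13.1%, 13.1%, 14.6% and 0.664% over 9 sites. Between neurons 9 of 9 were lower in Tet/Tet, and between ESCs 1 was higher and 1 lower.

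Pluripotency genes had low shores in ESCs, with medians of 1.67% in R1 and 3.56% in Tet/Tet over 7 of 25 genes, and medians of 20.9% in the R1 neurons and 4.28% in the Tet/Tet neurons. Klf4, a transcription factor gene of the naive state, averaged 1.67% ± 3.44 in R1 ESCs, 8.35% ± 15.1 in the Tet/Tet ESCs, 43.7% ± 37.7 in the R1 neurons and 20.3% ± 30.7 in the Tet/Tet neurons. Prdm14, a regulator of pluripotency and germ cells, averaged 8.17%, 4.04%, 48.8% and 7.66%, and Tbx3, a T-box factor gene with 68 sites, 1.86%, 2.44%, 10.2% and 2.27%. Sall4, a zinc finger factor gene, stayed at or under 4.28% in each library. From R1 ESCs to R1 neurons 5 of 7 were higher by at least 10 points.

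Neuronal genes had a median in R1 neurons close to that of all protein-coding genes. Over 9 of 28 neuronal genes the medians were 15.2% in R1 ESCs, 11.1% in the Tet/Tet ESCs, 36.4% in the R1 neurons and 5.28% in the Tet/Tet neurons, and 7 of 9 were higher in R1 neurons than in R1 ESCs. Syp, the gene of the synaptic vesicle protein synaptophysin, averaged 15.4% ± 19.98, 18.8% ± 20.98, 61.8% ± 33.8 and 10.7% ± 14.8 in that order of libraries. Chat, the acetylcholine synthesis gene, averaged 15.2%, 11.1%, 41.9% and 5.28%, and Gria2, a glutamate receptor gene, 24.2%, 11.3%, 36.4% and 10.7%. Nefm, a neurofilament gene, stayed at 9.73% in the R1 neurons and at or under 2.95% in the other libraries.

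Neural progenitor genes and developmental regulators had the smallest median differences of these groups between R1 neurons and R1 ESCs, at 10.7 and 9.07 points, beside 24.5 points over all protein-coding genes. Over 18 of 25 progenitor genes the medians were 11.6% in R1 ESCs, 7.38% in the Tet/Tet ESCs, 18.3% in the R1 neurons and 5.59% in the Tet/Tet neurons, and 9 of 18 were lower in Tet/Tet than in R1 neurons. Pax6, a transcription factor gene of neural and eye development, averaged 6.86% ± 8.24, 5.45% ± 8.60, 26.3% ± 16.5 and 9.38% ± 13.6 over 44 sites, and Emx2, a homeobox gene of the cortex, 15.1%, 10.2%, 31.1% and 2.33% over 40 sites. Nes, the nestin gene, averaged 12.3%, 10.9%, 25.9% and 5.97%, and Sox3 3.14%, 6.54%, 16.3% and 8.47%. Over 34 of 40 developmental regulators the medians were 9.18%, 6.6%, 19.8% and 4.51%, and 14 of 34 were higher in R1 neurons than in R1 ESCs. En1, Pax7 and Pax9, transcription factor genes of patterning, stood at 24.5%, 25.5% and 24.3% in R1 neurons, and Lhx5 at 7.57%.

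Housekeeping genes had a level in 14 of 25 cases, with medians of 9.05% in R1 ESCs, 10.8% in the Tet/Tet ESCs, 35.4% in the R1 neurons and 8.89% in the Tet/Tet neurons, close to those of all protein-coding genes. Actb, the beta-actin gene, averaged 5.48% ± 5.73, 7.36% ± 9.18, 63.9% ± 37.6 and 6.36% ± 6.29 in this order over 26 sites. Rps18, a ribosomal protein gene, stood at 39.9% in the R1 neurons and 8.04% in the Tet/Tet neurons, and Psmb4, a proteasome gene, at 49.1% and 16.4%. Gapdh, the glycolysis gene, stood at 25.8% and 10.6%. Between ESCs 0 of 14 differed by at least 10 points.

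Genes of the DNA methylation machinery had a level in 8 of 20 cases, and Dnmt1 was not among them because its chromosome was not analysed here in the Tet/Tet neurons. The medians were 7.69% in R1 ESCs, 7.71% in the Tet/Tet ESCs, 34.7% in the R1 neurons and 5.67% in the Tet/Tet neurons. Hells, the gene of a chromatin remodeller needed for DNA methylation, averaged 6.54% ± 6.44, 3.58% ± 3.78, 75.4% ± 35.7 and 15.5% ± 12.45 over 13 sites. Uhrf1, whose product brings DNMT1 to hemimethylated DNA, averaged 18.7% ± 29.1, 12.3% ± 16.4, 63.7% ± 30.6 and 9.22% ± 18.2 over 14 sites. Dnmt3b, a de novo methyltransferase gene, averaged 8.84%, 8.67%, 16.7% and 5.55% over 26 sites, and Mbd4, a glycosylase gene of mismatch repair at methylated CpGs, 1.55%, 2.62%, 9.44% and 1.97% over 19 sites. Between ESCs 0 of 8 differed by at least 10 points, and between neurons 6 of 8 were lower in Tet/Tet.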

How the data were processed

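The 4 RRBS libraries, 1 for each condition, were read from tables in which the authors deposited a methylation percent per CpG. Per the submitters' processing notes the tools were Trim Galore 0.6.4, FastQC 0.11.8, Bismark 0.19.0 and MethylDackel 0.3.0, with the mm10 build. The deposited percent values carry no read totals, so depth per site is unknown. Sites listed in all 4 tables were kept. Chromosomes 8 and 9, chromosome 7 beyond 55762981 and chromosome 10 before 128096803 were not analysed here in Tet/Tet neurons, so their sites were left out throughout. The first counts of islands and the numbers of listed genes were not restricted in this way. Islands were called on the sequence by a running score of 17 per CpG and -1 per other base, followed by the thresholds given above, and genes were taken from the GENCODE M21 annotation. Levels are unweighted means over sites. Each condition is 1 library, so no test was made. Shores were named by the 3 largest differences in each direction, and list members by their number of shared sites, up to 4 a list. Members and lists were chosen with earlier results of these data known. Alternatives were other sites, islands, promoter definitions, weights and thresholds. The code was tested on simulated data. Python 3.11.15, numpy 2.4.6, pandas 2.3.3, numba 0.67.0 and matplotlib 3.10.9 were used.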

Additional observations from a re-analysis of the deposited data

Results flagged for a closer look

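The difference between the lines was not alike in ESCs and in neurons. In promoter island shores the difference of Tet/Tet from R1 was 0.488 points in ESCs and -32.3 points in neurons, so the neuron difference minus the ESC difference was -32.8 points. In shores of other islands the same quantity was -50.8 points, from 0.679 points in ESCs and -50.2 points in neurons. Each pair stood out by the size of the neuron difference. The ESC differences were small, with SDs over chromosomes of 0.447 and 1.14 points. With 1 library per condition this was not tested, and cell type and sequencing project coincide.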

How the results depend on the processing

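Of the values recomputed under other choices, 187 moved by less than the SD over chromosomes, or by less than 1.5 times for counts of shores, and 77 moved by more, with 0 changes of direction. Values below are in the order R1 ESCs, Tet/Tet ESCs, R1 neurons, Tet/Tet neurons unless named. Restricting to autosomes and defining promoters by protein-coding genes moved none of their 24 values each. With each library's own listed sites, promoter shore means were 13.4%, 14.8% and 45.9% in the first 3 libraries. The differences were then 1.43 points between ESCs, -38.5 between neurons, 32.5 in R1 from ESCs to neurons and -7.39 in Tet/Tet, and 1.93 between ESCs in other shores. With stricter islands (at least 500 bp, 55% GC, ratio 0.65), promoter shore means were 11.1%, 11.4%, 36.5% and 7.07% and the outer minus the inner step 22.7, 24.3, 54.8 and 8.10 points. Promoter differences were then -29.5 points between neurons and -4.35 in Tet/Tet. Other shores averaged 16.8%, 16.98%, 48.3% and 9.93%, the outer minus the inner step was 13.6 and 14.4 points in ESCs, and the differences were -38.4 between neurons and 31.5 in R1. With isolated islands, other shores averaged 70.7% in R1 and 14.98% in Tet/Tet neurons. Within MspI fragments promoter means were 9.82%, 10.3%, 33.8% and 6.61%, and the differences -27.2 between neurons, 23.96 in R1 and -3.66 in Tet/Tet. Without soft-masked bases, the outer minus the inner step of other shores was 22.8, 23.9, 34.0 and 5.49 points, and Tet/Tet neurons averaged 11.35%. With shores weighted equally, promoter means were 14.02% and 14.7% in ESCs and 8.23% in Tet/Tet neurons, and the Tet/Tet difference -6.51 points. With starts inside the island, other shores gave 32.3 points outer minus inner in R1 neurons and a mean of 11.8% in Tet/Tet neurons. The cause of these moves was not tested.

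Counts of shores follow as higher and lower. A cut of 25 points or a rule of at least 10 sites can only lower such counts, so the direction of those moves was fixed in advance. They make up 6 and 8 of the moved values. At 25 points they were 104 and 73 between ESCs, 0 higher between neurons, 8 lower in R1, and 18 and 1433 in Tet/Tet. With at least 10 sites, which left 4285 shores, they were 188 and 136 between ESCs, 0 and 3221 between neurons, 3150 and 3 in R1, and 67 and 983 in Tet/Tet. Within fragments (5225 shores) they were 211 and 85, 2 and 3487, 3403 and 8, and 107 and 1082 in the same order. With stricter islands (5917 shores) they were 394 and 291, 7 and 4203, 4120 and 24, and 104 and 1281. By medians 23 shores were lower in R1 neurons. As a share of the shores left, those lower in Tet/Tet neurons than in R1 neurons were 62.2% at 25 points, 75.2% with 10 sites, 66.7% within fragments and 71.03% with stricter islands, beside 76.7%.

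No paired analysis was possible because each condition has 1 library and the values come from no test, and for the same reason no replicate was left out. Read totals per site are unknown, and the precision of single sites cannot be given.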

Other observations

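Shores on the X chromosome stood below those of autosomes at promoter islands, with 9.82% in R1 ESCs, 11.1% in the Tet/Tet ESCs, 33.1% in the R1 neurons and 7.09% in the Tet/Tet neurons over 2314 sites, beside autosomal means of 12.47%, 12.9%, 40.1% and 7.64%. At other islands the X values were 32.6%, 34.4%, 64.1% and 15.04% over 1956 sites, beside 25.8%, 26.4%, 63.4% and 13.3%, so the order of X and autosomes was not the same for both kinds of island. The 231 sites of the Y chromosome, in shores of other islands, averaged 85.2% in R1 neurons and 15.5% in the Tet/Tet neurons.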
